A study of Mus musculus with 2 samples.

Results

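The receptors and adaptors that give developing osteoclasts their costimulatory signal were described in a pair of sorted mouse bone marrow populations. A list of 10 genes was drawn up, comprising OSCAR, the TREM receptors, SIRP beta, the PILR pair, the paired immunoglobulin-like receptor listed as Lilrb3, and the adaptors DAP12 (Tyrobp) and FcR gamma (Fcer1g). A gene was taken where a probe set was annotated with that symbol alone, and 8 of the 10 met this, out of 19935 genes with such a probe set on the array. Sirpb1a and Lilrb3 had none of their own under those symbols. Each of the 8 genes was read by 1 probe set.

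The first population, labelled RANKhighFmslow, had high surface RANK, the receptor for RANKL, and low surface c-Fms, the receptor for M-CSF. The second, labelled RANKlowFmshigh, had low RANK and high c-Fms. Both came from the mononuclear layer of bone marrow of 6-week-old ddY mice, an outbred stock, with no genetic change or treatment given for either, and the series concerns precursors of osteoclasts. Each population was measured on 1 array, so no value has a replicate error, no test was possible, and the number of mice behind an array is not given in the sources used here. The populations are written RANKhigh cells and c-Fmshigh cells below, after their labels. Each value is a linear intensity in arbitrary units, and each difference is a log2 intensity, RANKhigh minus c-Fmshigh.

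RANKL drives osteoclast formation, but it needs a second signal through adaptors that carry an immunoreceptor tyrosine-based activation motif (ITAM). Receptors without a signalling tail of their own, such as OSCAR with FcR gamma or TREM2 with DAP12, hold the adaptor by a charged residue in the membrane. The phosphorylated ITAM recruits the kinase Syk, and the calcium signal that follows activates NFATc1, the main transcription factor of osteoclast formation. Inhibitory partners with an ITIM, such as PILR alpha and PIR-B, recruit phosphatases against this signal. Many of these proteins are used by monocytes and granulocytes as well as by osteoclasts.

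Promoter windows, 250 bases before to 50 bases after the start of the gene, were taken from RefSeq (build GRCm38.p6), which matched 7 of the 10 genes. Shown are those of Trem1 and Fcer1g, the genes apart by 2-fold or more in opposite directions, and of Pilra and Pilrb1, whose windows are nearly copies of each other. Capitals mark AGGAAGT (a PU.1-like ETS core), TGGAAA (an NFAT-like core) and the E-boxes CACGTG and CATGTG, searched on both strands.
Trem1, chr17:48232489-48232788, plus strand: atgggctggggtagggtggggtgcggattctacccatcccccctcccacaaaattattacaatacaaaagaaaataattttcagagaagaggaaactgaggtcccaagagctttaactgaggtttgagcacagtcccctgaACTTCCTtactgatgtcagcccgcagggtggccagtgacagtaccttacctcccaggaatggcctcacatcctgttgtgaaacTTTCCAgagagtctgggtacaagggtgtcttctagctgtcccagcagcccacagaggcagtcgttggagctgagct
Fcer1g, chr1:171234300-171234599, minus strand: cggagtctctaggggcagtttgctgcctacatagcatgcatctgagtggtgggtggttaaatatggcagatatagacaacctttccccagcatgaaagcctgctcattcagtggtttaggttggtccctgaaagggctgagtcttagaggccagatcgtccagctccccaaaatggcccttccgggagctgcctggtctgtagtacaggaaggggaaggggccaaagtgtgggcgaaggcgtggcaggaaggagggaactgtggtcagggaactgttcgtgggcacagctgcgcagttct
Pilra, chr5:137836229-137836528, minus strand: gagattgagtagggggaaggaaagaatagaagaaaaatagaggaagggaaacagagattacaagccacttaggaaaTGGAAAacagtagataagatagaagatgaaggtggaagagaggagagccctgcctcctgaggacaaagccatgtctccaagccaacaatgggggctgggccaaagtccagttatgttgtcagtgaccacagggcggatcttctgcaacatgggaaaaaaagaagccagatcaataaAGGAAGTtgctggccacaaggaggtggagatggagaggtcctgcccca
Pilrb1, chr5:137858000-137858299, minus strand: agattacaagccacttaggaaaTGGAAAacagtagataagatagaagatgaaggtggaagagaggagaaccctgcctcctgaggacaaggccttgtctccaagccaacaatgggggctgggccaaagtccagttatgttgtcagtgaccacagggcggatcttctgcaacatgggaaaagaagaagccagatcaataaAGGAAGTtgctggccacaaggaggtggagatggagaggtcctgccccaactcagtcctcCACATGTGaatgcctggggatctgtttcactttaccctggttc

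AGGAAGT was found in 4 of the 7 windows (Trem1, Pilra, Pilrb1 and Sirpb1a), against 9.35% of all 32851 windows in the RefSeq table. TGGAAA was found in 4 of the 7 (Oscar, Trem1, Pilra and Pilrb1), against 21.4% of all windows. CATGTG was found in 2 (Oscar and Pilrb1), against 14.2%, and CACGTG in 0, against 7.15%. In Pilrb1 the forward and reverse matches to CATGTG overlap in 1 run of letters, and no other matches overlap. The windows of Pilra and Pilrb1 overlap for 246 bases at an offset of 54, and 242 of these bases (98.4%) are identical. Their AGGAAGT and TGGAAA matches lie inside this shared stretch and are therefore not independent. Fcer1g and Trem2 held no match to these letters.

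The transcripts of both sort markers were set against the labels. Csf1r, the c-Fms gene, stood at 164 in RANKhigh cells and 821 in c-Fmshigh cells, in the direction of the label. Tnfrsf11a, the RANK gene, stood at 104 in RANKhigh cells and 119 in c-Fmshigh cells, which is not the direction of its label. Every direction given here is therefore that of the array labelled RANKhighFmslow against the array labelled RANKlowFmshigh.

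The values were read against all genes and against a guide to background. A level filter kept the 11089 genes with at least 1 of their intensities at or above 93.6, which is the median intensity over both arrays. Their median difference was -0.01. On each array the 95th percentile of 1189 olfactory and vomeronasal receptor genes, 83.8 in RANKhigh cells and 81.8 in c-Fmshigh cells, served as a guide to background. Of the 8 genes, 6 lay above this guide on both arrays, 1 (Trem1) only in RANKhigh cells and 1 (Oscar) on neither, and 7 passed the level filter. The receptor gene Trem1 was higher by 2-fold or more in RANKhigh cells, against 4.34% of all filtered genes, and the adaptor gene Fcer1g was lower by 2-fold or more, against 4.26%, so that 1 of the 7 filtered members lay past 2-fold in each direction. The median difference was 0.16 over the 8 genes and 0.09 over the 7. Members thus lay on both sides of 0.

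**Figure D1:**
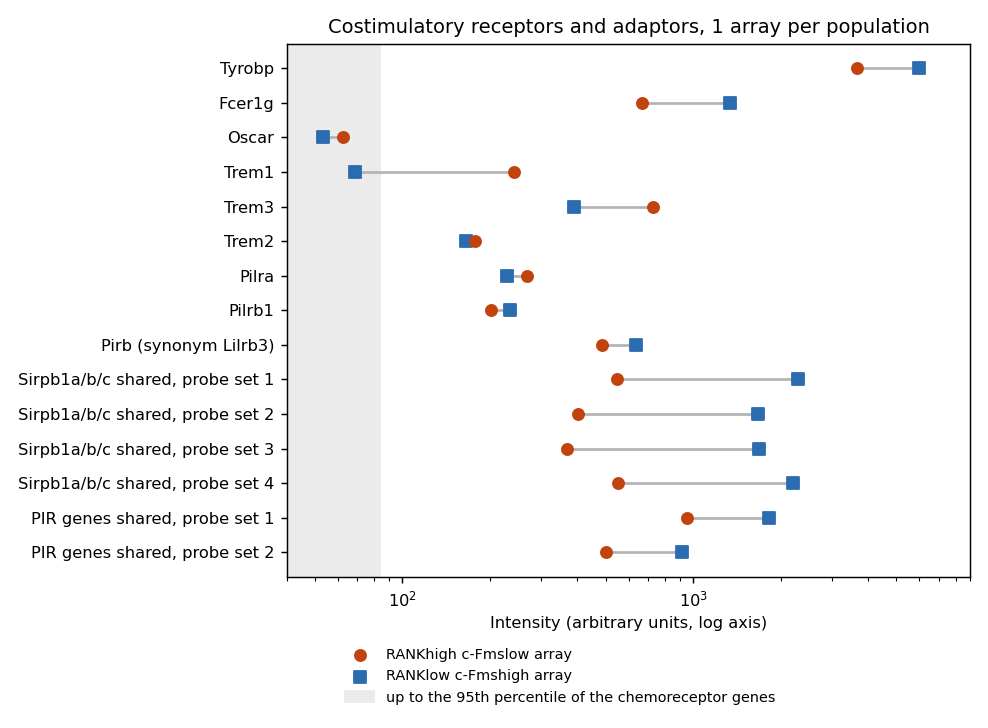
Intensity on a log axis of each gene and of the probe sets shared by several genes, with circles for the RANKhigh c-Fmslow array and squares for the RANKlow c-Fmshigh array. Grey marks values up to 83.8, the guide to background. Levels of different probe sets are not comparable with each other, only the circle and square of 1 row. Trem1 has its circle at 241 and its square in the grey zone, and the 4 probe sets of the Sirpb1 genes have the squares far to the right.

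Both adaptors were lower in RANKhigh cells. Tyrobp, which encodes DAP12, the partner of the TREM, SIRP beta and PILR beta receptors, stood at 3656 in RANKhigh cells and 6005 in c-Fmshigh cells, 1.64-fold lower (difference -0.72). Of the filtered genes, 972 had a lower difference than Tyrobp. Fcer1g, which encodes FcR gamma, the partner of OSCAR, of PIR-A and of activating Fc receptors, stood at 668 in RANKhigh cells and 1344 in c-Fmshigh cells, 2.01-fold lower (difference -1.01). Of the filtered genes, 462 had a lower difference. It lay just past the 2-fold line, and under quantile normalization its difference was -0.89. Both adaptors lay above the background guide on both arrays.

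In sorted cells, fewer cells of a type and less RNA per cell cannot be told apart. Monocyte markers lay in the same direction as the adaptors. All 11 measured markers of a list of 14, which includes the sort marker gene Csf1r, were lower in RANKhigh cells, with a median difference of -1.98. By 2-fold or more, 8 were lower, against 4.26% of all filtered genes. The summed intensity of the 11 was 5641 in RANKhigh cells and 23968 in c-Fmshigh cells, a sum in which the brightest probe sets weigh most. All 11 were above the guide on at least 1 array. The difference of Fcer1g was smaller in size than this median, as was that of Tyrobp. Other myeloid lists did not lie in this direction. Of 14 measured macrophage markers, 11 passed the level filter (median 0.01 over the 14 and over the 11). By 2-fold or more, 2 of these were higher and 3 lower, against 4.34% and 4.26% of all filtered genes. Most neutrophil markers, given below, were higher in RANKhigh cells (median 1.5). The part of monocytes, dendritic cells, macrophages or neutrophils in the adaptor values was not tested.

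The TREM receptors, immunoglobulin-like receptors of myeloid cells encoded side by side on chromosome 17, did not follow the adaptors. Trem1, whose product amplifies inflammatory responses of neutrophils and monocytes through DAP12, stood at 241 in RANKhigh cells and 68.5 in c-Fmshigh cells. The second value was not above the background guide, so Trem1 was at least 2.95-fold higher in RANKhigh cells. On the log2 scale this is a difference of at least 1.56, and the measured difference of 1.82 is given below only as measured.

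Trem3, a DAP12-coupled receptor of mouse myeloid cells, stood at 729.7 in RANKhigh cells and 389.7 in c-Fmshigh cells. It was 1.87-fold higher (difference 0.90), and 581 filtered genes had a higher difference. Trem2, the DAP12-coupled receptor of macrophages and osteoclasts that binds lipids and apolipoproteins, stood at 177 in RANKhigh cells and 166 in c-Fmshigh cells, a difference of 0.09. The difference of Trem1 therefore exceeded that of its adaptor gene Tyrobp by at least 2.27 on the log2 scale, that of Trem3 by 1.62 and that of Trem2 by 0.81.

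Neighbours of these genes were read from the reference gene order. Of 6 measured TREM and TREM-like genes on chromosome 17, 5 were higher in RANKhigh cells and 1 was lower. Trem1 and Trem3 lie next to each other at one end of the order and had the largest measured differences of the 6. Treml4, which follows them, stood at 134 in RANKhigh cells and 189.9 in c-Fmshigh cells (difference -0.51). Treml2 (0.42), Trem2 (0.09) and Treml1 (0.23), the last known from platelets, make up the rest. These relatives were named for their place in the order, whatever their values.

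Most neutrophil markers were higher in RANKhigh cells, as Trem1 and Trem3 were. Of 15 markers, all measured and all above the guide on at least 1 array, 12 were higher and 3 lower (median difference 1.5). By 2-fold or more, 9 were higher and 0 lower, against 4.34% and 4.26% of all filtered genes. The summed intensity of the 15 was 49340 in RANKhigh cells and 21385 in c-Fmshigh cells, and here too the brightest probe sets weigh most. The markers spread from Ctsg (-0.57), a protease of the early primary granules, to Retnlg (4.11), a resistin-like protein of marrow granulocytes. The difference of Trem3 (0.90) lay below that of S100a9 (0.99), an alarmin. Ctsg and S100a9 were chosen after their values were seen. Markers of other lineages lay in the same direction. Of 6 measured eosinophil markers 5 were higher by 2-fold or more (median 2.72), against 4.34% of all filtered genes. So were all 7 measured erythroid markers (median 2.42). Which cells carried the Trem1 and Trem3 transcripts was not tested.

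**Figure D2:**
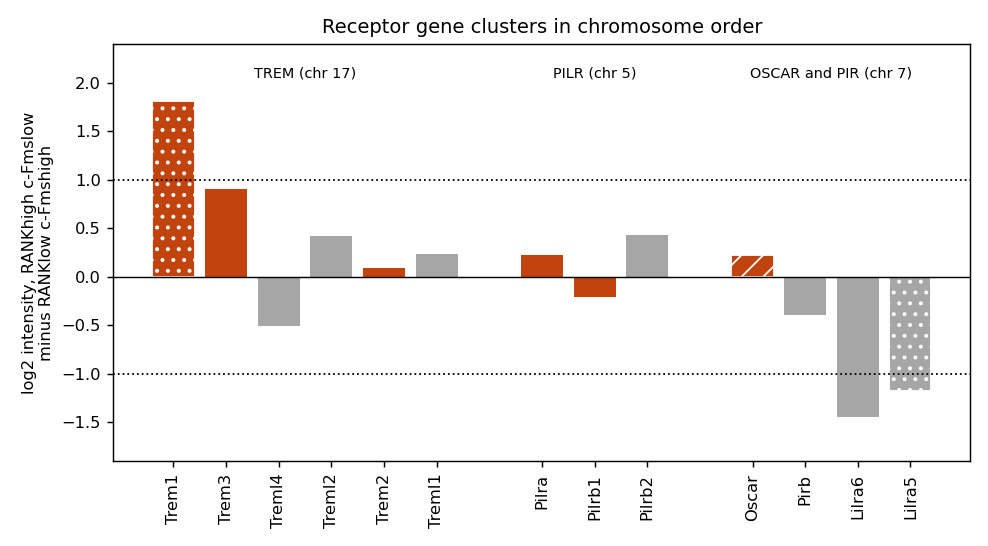
Log2 difference (RANKhigh c-Fmslow minus RANKlow c-Fmshigh) of the measured genes of the TREM, PILR and OSCAR and PIR groups, in chromosome order. Coloured bars are genes of the list, grey bars their relatives, the hatched bar (Oscar) was under the background guide on both arrays, bars with dots (Trem1 and Lilra5) have 1 of their values under it, so that only a bound holds for them, and dotted lines mark 2-fold. Trem1 (1.82 as measured) and Trem3 (0.90) stand above 0 at the left, whereas Lilra6 (-1.45) reaches past the lower 2-fold line.

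The 3 PILR genes were all within 2-fold. Pilra, the inhibitory receptor of the pair, stood at 268 in RANKhigh cells and 229 in c-Fmshigh cells (difference 0.23). Pilrb1, its activating counterpart that signals through DAP12, stood at 202 in RANKhigh cells and 234 in c-Fmshigh cells (difference -0.21). The signs were opposite, but the gap of 0.44 between the differences has to be set beside the disagreement of probe sets within a gene. Among 558 filtered genes with exactly 2 probe sets, the gap between the differences had a median of 0.19 and a 90th percentile of 0.67. The third gene of the group, Pilrb2, stood at 162 in RANKhigh cells and 121 in c-Fmshigh cells (0.43). Pilra and Pilrb1 are close relatives, as their windows shown above illustrate, and probe sets may not fully separate them.

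Oscar, the collagen receptor that pairs with FcR gamma and is induced during osteoclast formation, was not above the background guide. It stood at 62.2 in RANKhigh cells and 53.3 in c-Fmshigh cells, under the guides of 83.8 and 81.8, so it cannot be said from these arrays that Oscar was detected or that it differed. Osteoclast markers were divided. Car2, carbonic anhydrase II, was 4.01-fold higher, the acid phosphatase gene Acp5 2.90-fold and Mmp9, a gelatinase gene, at least 3.38-fold, and Mmp9 also stands in the neutrophil list. Markers of other lineages, the erythroid one among them (median 2.42), were higher as well. Which cells carried the Car2, Acp5 and Mmp9 transcripts was not tested. Ctsk, which encodes cathepsin K, stood at 59.7 in RANKhigh cells and 73.8 in c-Fmshigh cells, and the calcitonin receptor gene Calcr at 51.9 in RANKhigh cells and 54.8 in c-Fmshigh cells, all under the guide. Of 15 osteoclast markers (median -0.07), 10 were above the guide on at least 1 array and 9 passed the level filter. By 2-fold or more, 3 were higher and 0 lower, against 4.34% and 4.26% of all filtered genes. The list includes Oscar and the sort marker gene Tnfrsf11a. Acp5, Ctsk and Calcr were chosen after their values were seen.

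The SIRP beta genes could be read only together. Sirpb1a, Sirpb1b and Sirpb1c lie in a row on chromosome 3 and encode receptors of very similar sequence, of which SIRP beta is known to pair with DAP12 on macrophages. The array has 4 probe sets annotated with all 3 genes and none annotated with Sirpb1a alone. Their intensities in RANKhigh cells were 547, 403, 369 and 552, and those in c-Fmshigh cells, in the same order, were 2294, 1676, 1679 and 2210.3. All 4 probe sets were thus lower in RANKhigh cells, by 4.0-fold to 4.55-fold, with differences from -2.19 to -2.0. The 4 are not independent, since they may bind the same transcripts, and the values belong to the 3 genes jointly. Sirpa, the inhibitory relative that binds CD47, was also lower, at 711 in RANKhigh cells and 1759 in c-Fmshigh cells (2.47-fold).

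The paired immunoglobulin-like receptors were lower in RANKhigh cells to differing degrees. The reference gene table gives Lilrb3 as a synonym of Pirb, which encodes the inhibitory PIR-B, and 1 probe set is annotated with Pirb alone. It stood at 486 in RANKhigh cells and 637 in c-Fmshigh cells, 1.31-fold lower (difference -0.39). A further 2 probe sets, annotated with Pirb and 5 other PIR genes or gene models, stood at 956 and 502 in RANKhigh cells and 1825 and 915 in c-Fmshigh cells (differences -0.93 and -0.87). Lilra6, an activating PIR-A type gene of this locus on chromosome 7, was 2.73-fold lower at 194 in RANKhigh cells and 529 in c-Fmshigh cells. These genes are near-copies, so the split of signal between them is uncertain.

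**Figure D3:**
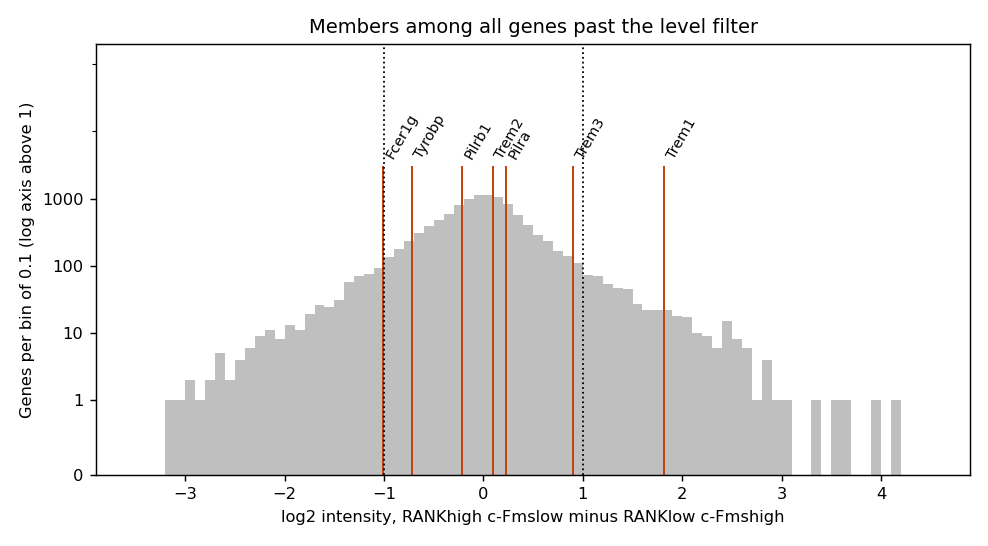
Number of genes per bin of 0.1 of the log2 difference (RANKhigh c-Fmslow minus RANKlow c-Fmshigh) over the 11089 genes past the level filter, on a log axis, with coloured lines at the 7 listed genes that passed it and dotted lines at 2-fold. Trem1 (1.82 as measured) lies in the upper tail, Fcer1g (-1.01) on the lower 2-fold line, and Pilra, Pilrb1 and Trem2 in the centre.

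A list of 34 entries was drawn up for other receptors that use DAP12, FcR gamma or DAP10, and 29 of these were measured. Not every entry is such a receptor. Cd247, for example, is itself an adaptor chain and also stands in the list of adaptor chains below. Of the 23 that passed the level filter, 6 were lower by 2-fold or more in RANKhigh cells and 2 higher by 2-fold or more, against 4.26% lower and 4.34% higher among all filtered genes, with a median of -0.51. Clec7a, the beta-glucan receptor Dectin-1, had the lowest difference (-2.13), at 187 in RANKhigh cells and 821 in c-Fmshigh cells (4.38-fold lower), and it is known to carry a signalling motif of its own. Clec5a, a DAP12-coupled lectin of myeloid cells, stood at 158 in RANKhigh cells and 437 in c-Fmshigh cells (2.76-fold lower). Lilra6 (2.73-fold) and Lilra5 (at least 1.57-fold, since its value in RANKhigh cells was not above the guide) were also lower.

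Of the 23 filtered genes of this list, 9 were higher and 14 lower in RANKhigh cells. The 2 that were higher by 2-fold or more are known from other cells. Fcer1a, the alpha chain of the IgE receptor of basophils and mast cells, stood at 172 in RANKhigh cells and 50.1 in c-Fmshigh cells, which is under the guide, and was at least 2.10-fold higher. Klrd1, which encodes CD94 of NK cells, was 2.57-fold higher at 363 in RANKhigh cells and 141 in c-Fmshigh cells. Of 10 measured basophil and mast cell markers, a list that also holds Fcer1a, 7 passed the level filter. By 2-fold or more, 4 were higher, against 4.34% of all filtered genes, with a median of 0.72 over the 10 and 1.56 over the 7. Of 8 measured NK cell markers, which include Klrd1, 5 passed the filter. By 2-fold or more, 3 were higher, against the same share, with a median of 0.79 over the 8 and 1.36 over the 5. The part of basophils, mast cells or NK cells in these values was not tested.

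The list of 10 ITAM and related adaptor chains had members in both directions. Fcer1g was the 1 chain lower by 2-fold or more, against 4.26% of all filtered genes, and 5 genes were higher by 2-fold or more in RANKhigh cells, against 4.34%. These were Cd3d (6.16-fold) and Cd3g (3.94-fold) of the T cell receptor complex, Cd79a (2.90-fold) and Cd79b (2.77-fold) of the B cell receptor, and Fcrla (3.83-fold), an Fc receptor-like protein of B cells that is no adaptor. Cd79b, for example, stood at 2798 in RANKhigh cells and 1009 in c-Fmshigh cells. Hcst, which encodes DAP10, an adaptor without an ITAM that DAP12-coupled receptors also use, stood at 472 in RANKhigh cells and 358 in c-Fmshigh cells (difference 0.40), and was chosen after its value was seen. All 12 measured B lineage markers were higher by 2-fold or more in RANKhigh cells (median 1.84). Of 6 measured T cell markers (median 0.90), 5 passed the level filter (median 1.07) and 3 were higher by 2-fold or more. Cd79a, Cd79b, Cd3d and Cd3g also stand in those marker lists.

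Inhibitory receptors and phosphatases differed in both directions. Of 24 measured genes, 23 passed the level filter, 3 were higher by 2-fold or more, 2 lower by 2-fold or more and 18 in between (median -0.07), against 4.34% higher and 4.26% lower among all filtered genes. The 3 were the B cell inhibitory receptors Cd22 (3.56-fold), Cd72 (3.52-fold) and Siglecg (2.79-fold). The 2 were the myeloid receptors Cd300a, at 260.0 in RANKhigh cells and 737 in c-Fmshigh cells (2.83-fold), and Sirpa. Clec12a, an inhibitory lectin of myeloid cells, lay just inside 2-fold (1.90-fold lower).

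Downstream of the adaptors, 28 of 32 kinases, adaptor proteins and phospholipases were measured and all 28 passed the level filter. Of these, 2 were higher by 2-fold or more and 4 lower by 2-fold or more in RANKhigh cells, against 4.34% and 4.26% of all filtered genes, with a median of -0.01. Blnk, the adaptor that links Syk to phospholipase C in B cells and also acts in osteoclasts, stood at 1123 in RANKhigh cells and 237 in c-Fmshigh cells (4.74-fold higher). Lat, the T cell scaffold, was 2.10-fold higher. Lcp2, which encodes the adaptor SLP-76 of myeloid and T cells, stood at 538 in RANKhigh cells and 1419 in c-Fmshigh cells (2.64-fold lower). Vav3, an exchange factor that osteoclasts need for their cytoskeleton, was 2.56-fold lower, the Src family kinase gene Fgr 2.31-fold and the scaffold gene Gab2 2.04-fold. Syk itself, chosen after its value was seen, stood at 633 in RANKhigh cells and 556 in c-Fmshigh cells (0.19).

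Among the calcium and NFAT steps, 20 genes passed the level filter, of which 0 were higher by 2-fold or more and 1 lower by 2-fold or more, against 4.34% and 4.26% of all filtered genes (median 0.01). That gene was Atp2b1, a plasma membrane calcium pump, at 718 in RANKhigh cells and 2094 in c-Fmshigh cells (2.92-fold lower). The calcium channel gene Trpv2 (1.80-fold lower) and the inositol trisphosphate receptor gene Itpr2 (1.77-fold higher) followed, and neither reached 2-fold. Nfatc1, chosen after its value was seen, stood at 192 in RANKhigh cells and 176 in c-Fmshigh cells.

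Among 24 measured ligands and surface partners, 20 passed the filter, 1 was higher by 2-fold or more and 1, the sort marker Csf1r, lower by 2-fold or more, against 4.34% and 4.26% of all filtered genes (median 0.13). The 1 higher was Pglyrp1, a peptidoglycan recognition protein of neutrophil granules and a known ligand of TREM1, at 2513 in RANKhigh cells and 667 in c-Fmshigh cells (3.77-fold). It lay in the same direction as Trem1 and as the neutrophil markers. Lgals3, which encodes galectin-3, was 1.91-fold lower. Apoe, a ligand of TREM2, stood at 444 in RANKhigh cells and 642 in c-Fmshigh cells (-0.53). The collagen gene Col1a1, whose product OSCAR binds, stood at 128 in RANKhigh cells and 139 in c-Fmshigh cells. Apoe and Col1a1 were chosen after their values were seen.

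**Figure D4:**
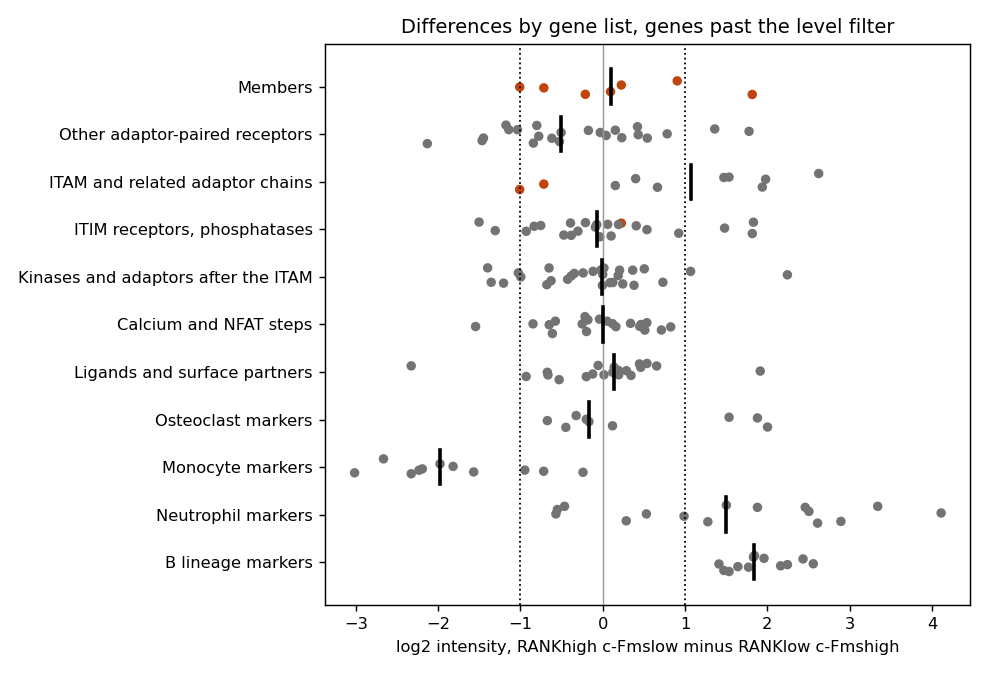
Log2 difference (RANKhigh c-Fmslow minus RANKlow c-Fmshigh) of each gene past the level filter, 1 point a gene and 1 row a list, with the list's median as a black bar, 2-fold as dotted lines and the listed receptors and adaptors coloured. Monocyte markers lie to the left (median -1.98), neutrophil (1.5) and B lineage (1.84) markers to the right, and the listed receptors and adaptors on both sides of 0.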

How the data were processed

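The deposited values are intensities on a linear scale, 1 per probe set and array, from 28815 probe sets. The submitters' processing notes name GCOS 1.4 and RMA as the authors' tools, with no role or order. Background correction and normalization were those of the authors. Values were put on the log2 scale with no pseudocount, with Python 3.11.15, numpy 2.4.6 and pandas 2.3.3. The platform annotation of 2016 names 1 gene for 21780 probe sets, several for 1605 and none for 5430, and probe sets of a gene were averaged. Genes were counted at 2-fold or more among those past the level filter. The list members were all named, and from other lists up to 6 genes (2 for cell type markers) with the largest absolute difference. Where the lower value was under the background guide, the fold is the higher value over that guide and is written "at least", while counts use the measured values. The members, lists and background guide were chosen with earlier results of these data known. The size rule was tried on simulated data in which differences were either absent or clearly past 2-fold. Such data cannot show how the rule treats genes near that line. With 1 array per population the number of arrays limits the precision. Alternatives varied the centring, normalization, probe set choice, pseudocount, level filter and size rule.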

Additional observations from a re-analysis of the deposited data

How the results depend on the processing

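No paired analysis was possible because each population has 1 array. Over 5 alternatives of scaling, probe sets and pseudocount no member changed sign, and 39 differences moved by less than 0.19, the median gap between probe sets of a gene. Many of these 39 could not have moved further. The alternatives of probe set choice left the measured members as they were, since each had 1 probe set and none was in a shared one. Centring shifts all genes by the same small amount. The 1 difference that moved by more was that of Trem1, at 1.61 with a pseudocount of 16. Fcer1g lay on the 2-fold line, with a range from -1.04 to -0.89, so that the members at least 2-fold lower numbered 0 (not 1) under quantile normalization and with the pseudocount, as did the adaptor chains. With probe sets of several genes included, 2 members were at least 2-fold lower, the second being Sirpb1a. The pseudocount left 1 kinase or adaptor gene at least 2-fold higher. Other receptors at least 2-fold lower, 6 in the main setting, numbered 4 with the pseudocount and 8 with probe sets of several genes included. Kinases and adaptors at least 2-fold lower, 4 in the main setting, numbered 3 with the pseudocount and 5 with centring. Inhibitory receptors at least 2-fold higher, 3 in the main setting, numbered 4 under quantile normalization. Without the level filter 2.44% of all genes were at least 2-fold higher and 2.38% lower. With a size rule of 1.5-fold these were 10.5% and 12.4%, and 2 members were higher (Trem1 and Trem3) and 2 lower (Fcer1g and Tyrobp). Under that rule the genes lower numbered 10 among other receptors, 2 among adaptor chains, 5 among inhibitory receptors, 8 among kinases and adaptors, 4 among calcium steps and 4 among ligands, and the genes higher 2 among calcium steps and 2 among ligands. Counting Pirb as Lilrb3, an alternative added after seeing the data, left both member counts as they were. Without replicates, no difference has an error of its own.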
